A study of Homo sapiens with 6 samples.

Results

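The protein disulfide isomerase (PDI) family was examined in Hep3B cells, a line established from a human hepatocellular carcinoma. The members were 10 listed genes: P4HB, PDIA3, PDIA4, PDIA5, PDIA6, ERP27, ERP29, ERP44, TXNDC5 and TMX1. All probes that the platform annotation assigns to these symbols were taken, which gave 15 of the 47321 probes on the Illumina expression BeadChip. Control cells received the solvent DMSO for 24 h (3 samples), and treated cells received sorafenib, which blocks RAF kinases and several receptor kinases, for 24 h at a labelled dose of 3 mM (3 samples). Culture work with this drug usually uses micromolar doses, so the unit on the label may be a slip, which these data cannot settle. All 6 samples are the same cell line, and no PDI inhibitor is named in their labels. The labels number the samples 1 to 3 in each group and do not state that separate cultures were used, so the spread behind every p-value may be only technical.

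PDI family proteins sit in the endoplasmic reticulum (ER), where many of them form, break or rearrange disulfide bonds in newly made secreted and membrane proteins. The catalytic members carry thioredoxin-like domains with a pair of cysteines that shuttles electrons, and they are reoxidised by ERO1 and by ER peroxidases. Other members have lost these cysteines and bind substrates or partner proteins instead. Hepatocytes secrete large amounts of disulfide-bonded plasma proteins, and several family genes are known targets of the unfolded protein response, the programme that raises folding capacity when the ER is stressed. The question here was which of these genes differed in transcript level after sorafenib alone.

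On each array 16214 to 17380 probes (34.3% to 36.7%) were detected, meaning a detection p under 0.01, and the arrays of a group correlated across tested probes at 0.992 to 0.997. A probe was tested when it was detected on at least 3 of the 6 arrays, which held for 16909 probes. The cell line label was set against hepatocyte markers, and 8 of 8 (ALB, AFP, APOA1, APOB, TTR, SERPINA1, TF and FGB) were detected on every array, with a summed normalized intensity of 134000 to 138000 in control and 126000 to 130000 in sorafenib samples. Single markers went both ways at a limma adjusted p under 0.05: AFP (log2 -0.39) and TF (-0.27) fell, APOA1 (0.28) rose, and 5 did not pass. The share past this threshold over all measured genes was 36.7%. None of the 4 endothelial markers was detected. Of 4 fibroblast markers, LUM was detected on every array, PDGFRB on the 3 control arrays and on none of the sorafenib arrays. COL1A2 and DCN were not detected. Their summed intensity, 1700 to 1950 in control and 1180 to 1220 in sorafenib samples, came mostly from LUM, which fell (log2 -0.59 ± 0.08, limma adjusted p = 0.00169). PDGFRB entered the test only through the control arrays, so its test is not used. Of 4 immune markers, CD14 and CD68 were measured while PTPRC and CD3E were not detected (sum 1260 to 1290 in control and 1400 to 1630 in sorafenib samples). CD14 rose on both tested probes (log2 0.43 ± 0.08 and 0.61 ± 0.14, limma adjusted p = 0.00829 and 0.0166), and CD68 did not change past an adjusted p of 0.05. The part of these shifts in the results below was not tested. In bulk RNA of this kind, fewer cells expressing a gene and less RNA per cell cannot be told apart.

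Promoter sequence was available for 8 of the 10 members, from RefSeq on GRCh38.p14, and the 250 bases upstream of each annotated start were searched on both strands. ERP27 and PDIA3 had no entry. The ER stress response element, to which the unfolded protein response factor ATF6 binds together with NF-Y, was searched as CCAAT and CCACG with 9 bases between them. Among members it occurred in PDIA6, at 1 of the 2 starts listed for that gene, its first base 86 bases upstream. Of all 35116 promoter windows in the table, 0.074% held it. The same element was found in the folding factor genes HSPA5, HSP90B1, CALR and CANX, members of a list of complex partners described further on, and in the oxidase gene ERO1B, which was not detected on any array. These sequences are shown because they mark the family gene and the partners with the textbook ER stress element, with the fixed letters of the element in capitals. The CALR match lies on the strand opposite to the gene, as does that of ERO1B, which is not shown. HSP90B1 held a further match on its opposite strand, 89 to 71 bases upstream, also not shown.
PDIA6 at chr2:10812839-10812885, minus strand: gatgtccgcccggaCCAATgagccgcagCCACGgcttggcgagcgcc
HSPA5 at chr9:125241377-125241423, minus strand: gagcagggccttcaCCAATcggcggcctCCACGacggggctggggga
HSP90B1 at chr12:103930202-103930248, plus strand: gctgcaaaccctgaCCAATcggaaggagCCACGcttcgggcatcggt
CANX at chr5:179698764-179698810, plus strand: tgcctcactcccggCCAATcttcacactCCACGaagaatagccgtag
CALR at chr19:12938370-12938416, plus strand: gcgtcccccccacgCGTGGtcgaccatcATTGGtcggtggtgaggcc

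The unfolded protein response element core, TGACGTGG, was present in TXNDC5 and in 0.612% of all windows. The palindromic E-box CACGTG, a motif added after the sequences had been seen, was present in ERP29 at 3 places and in PDIA5 at 1, against 6.34% of all windows. The second form of the ER stress element (ATTGG and CCACG with 1 base between them, 0.0513% of windows) and the C/EBP-ATF response element (TGATGNAA, 3.14%) did not occur in the windows of the 8 members. TGACGTGG and CACGTG share the letters ACGTG, so a stretch can come close to both. In the lists described further on, TGACGTGG was also present in DNAJC10, which rose, and CACGTG in TXNDC12, PRDX4, QSOX1 and HSP90B1, which did not pass the threshold, and in PDIA2, which was not detected. TGATGNAA was present there in GPX8, which was detected on the sorafenib arrays only. Windows of the members with these motifs are shown, with the motif in capitals.
TXNDC5 at chr6:7910148-7910183, minus strand: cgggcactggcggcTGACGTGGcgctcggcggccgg
ERP29 at chr12:112013300-112013333, plus strand: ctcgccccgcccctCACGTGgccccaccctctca
ERP29 at chr12:112013351-112013384, plus strand: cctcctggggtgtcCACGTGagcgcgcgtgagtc
ERP29 at chr12:112013383-112013416, plus strand: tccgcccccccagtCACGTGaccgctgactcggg
PDIA5 at chr3:123066891-123066924, plus strand: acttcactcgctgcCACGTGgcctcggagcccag
A match describes letters in a window, and binding was not measured.

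Of the 15 member probes, 10 were tested and stood for 8 genes, and on all 6 arrays each of these 10 had a detection p of 0. The other 5 probes were not well above background on any array. They are the only PDIA3 probe, both ERP44 probes, 1 of the 3 ERP29 probes and 1 of the 2 TMX1 probes. Their non-normalized intensities lay between 75.9 and 129, close to the array medians of 106 to 117. PDIA3 and ERP44 therefore have no level in these data. An undetected probe is not an absent transcript: ERP29 and TMX1 each had another probe that was bright on every array, and the probe for PPIB, an ER cyclophilin that most cells express, was also undetected on all 6 arrays.

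**Figure D1:**
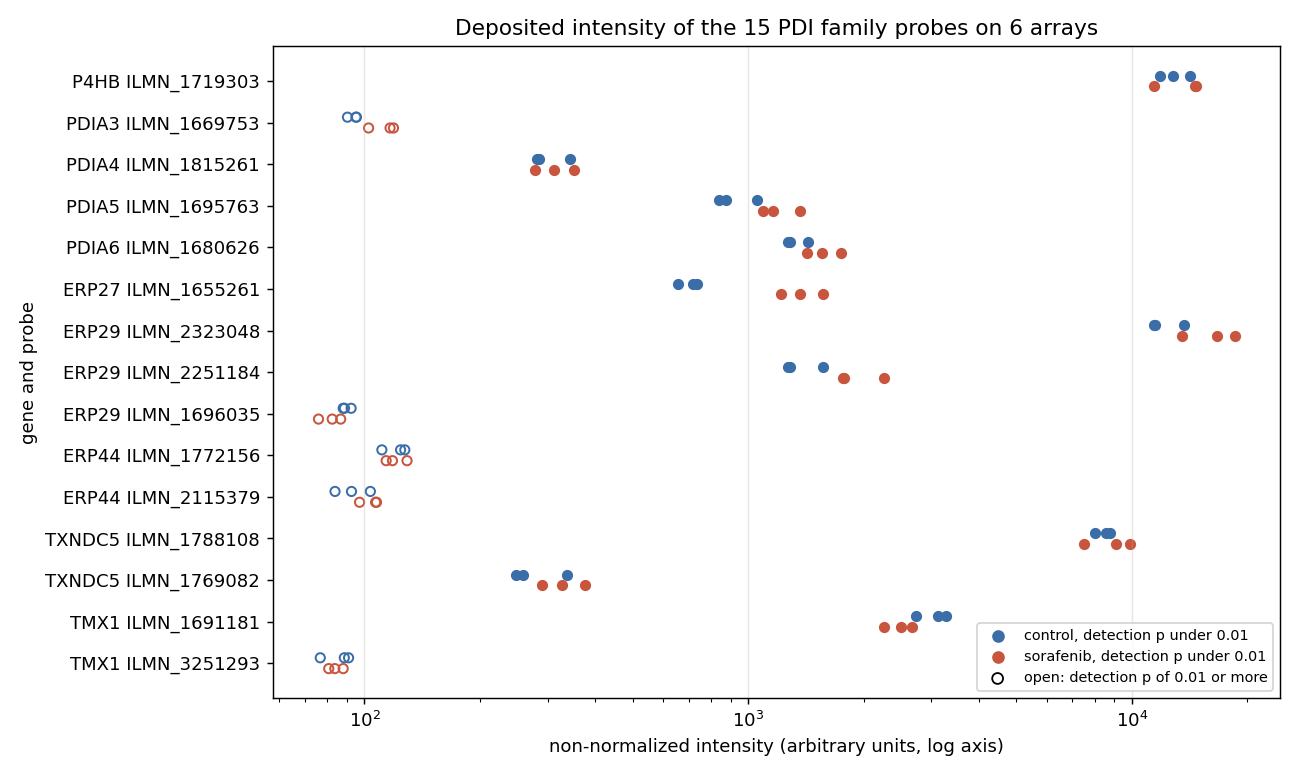
Non-normalized intensity (log axis) of each of the 15 member probes, with 3 control and 3 sorafenib points per probe, filled where the detection p was under 0.01. The 5 rows of open points, all between 75.9 and 129, are the probes without a measured level.

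Among the 8 measured members, 3 genes rose (ERP27, ERP29 and PDIA5), TMX1 fell, and P4HB, PDIA4, PDIA6 and TXNDC5 did not pass the threshold (limma, Benjamini-Hochberg adjusted p under 0.05 over all tested probes). These 4 of 8 are 50%, against a background of 36.7% of all 10598 measured genes past the threshold in either direction. By direction the background was 19.7% higher and 17.0% lower. Counted by probe, 5 of 10 passed, against 34.1% of all tested probes. The sorafenib and control values did not overlap for 5 of the 8 genes (62.5%), against 53.5% of all measured genes. With 8 genes these shares lie near their backgrounds, and nothing about the family as a whole is read from them. The members' median difference was 0.09 on the log2 scale, with a range of -0.39 to 0.92, and the median over all measured genes was -0.001.

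**Figure D2:**
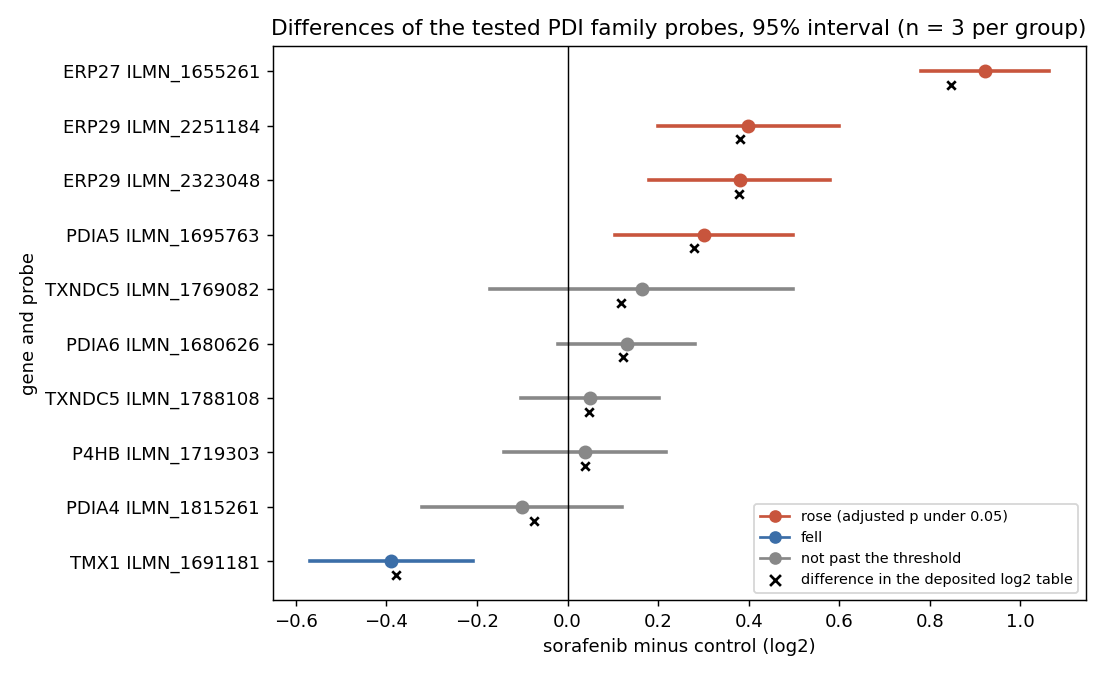
Sorafenib minus control on the log2 scale for the 10 tested probes, with 95% intervals (n = 3 per group) and, as crosses, the same difference in the deposited log2 table. ERP27 lies apart from the others at 0.92, TMX1 is the probe that fell at -0.39, and the crosses fall inside the intervals.

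P4HB, on chromosome 17 (81843166 to 81860535, GRCh38.p14), encodes PDI itself, which also serves as a subunit of collagen prolyl 4-hydroxylase and of the microsomal triglyceride transfer complex. Its normalized log2 intensity was 13.60, 13.65 and 13.73 in control replicates 1 to 3, and 13.65, 13.64 and 13.80 in sorafenib replicates 1 to 3. The groups overlapped, with the lowest value in a control sample and the highest in a sorafenib sample. The difference was 0.04 ± 0.08 (SE, limma adjusted p = 0.731), with a 95% interval of -0.14 to 0.22, so the interval lies well inside a 2-fold change in either direction. Of all measured genes, 10.6% had a smaller absolute difference. The P4HB probe was brighter than those of 98.0% of measured genes and held rank 225 of 10598 in control and 209 in sorafenib cells. Such ranks describe how bright probes were on the arrays; probes differ in efficiency, so they do not order transcripts by abundance. Read in this way, TXNDC5 stood at 416 in control and 402 in sorafenib cells, PDIA6 at 3189 and 2985, PDIA5 at 4164 and 3653, and PDIA4 at 7336 and 7536.

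The bright TXNDC5 probe (ILMN_1788108) behaved in the same manner. TXNDC5, on chromosome 6, encodes ERp46, an efficient introducer of disulfide bonds. Normalized log2 intensities were 13.05, 13.06 and 13.01 in control and 13.10, 13.02 and 13.14 in sorafenib samples, and the groups overlapped. The difference was 0.05 ± 0.06 with a 95% interval of -0.10 to 0.20 (limma adjusted p = 0.600). The second TXNDC5 probe (ILMN_1769082) was far dimmer, with non-normalized intensities of 249 to 375 against 7504 to 9898 on the first. It differed by 0.16 ± 0.14, with an interval of -0.17 to 0.50 (limma adjusted p = 0.414). Its control values spread from 7.50 to 8.01, so this probe bounds TXNDC5 less tightly than the bright one.

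PDIA4, on chromosome 7, encodes ERp72, an oxidoreductase with an additional catalytic domain. It gave the dimmest representing probe of the 8 measured members, dimmer than those of all but 29.8% of measured genes. Its normalized log2 intensities were 7.87, 7.74 and 8.04 in control and 7.78, 7.72 and 7.87 in sorafenib samples. The groups overlapped and the difference was -0.10 ± 0.09 (95% interval -0.32 to 0.12, limma adjusted p = 0.450).

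PDIA6, on chromosome 2, encodes P5, an oxidoreductase that binds the ER chaperone BiP, and is the member whose promoter window holds the complete ER stress element. Values were 10.39, 10.29 and 10.39 in control and 10.45, 10.50 and 10.51 in sorafenib samples. All 3 sorafenib values lay above all 3 control values, although before normalization the groups overlapped (1273 to 1434 against 1421 to 1750). The difference was 0.13 ± 0.06, with a 95% interval of -0.02 to 0.28, and did not pass (limma adjusted p = 0.161). BiP, encoded by HSPA5, which carries the same element and was chosen after its value was seen, differed by 0.20 ± 0.09 (adjusted p = 0.120).

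PDIA5, on chromosome 3 (123067025 to 123162104), encodes PDIR, a less studied oxidoreductase of the ER. Its values were 9.80, 9.63 and 9.90 in control and 10.07, 10.09 and 10.07 in sorafenib samples. The sorafenib samples stood above every control sample and close together (SD 0.01, against 0.14 in control, n = 3 each). PDIA5 rose 1.23-fold (log2 0.30 ± 0.08, SE, 95% interval 0.11 to 0.50, limma adjusted p = 0.0295). This call was lost when any array but control replicate 3 was left out. Its adjusted p was 0.0736 and 0.0686 without control replicate 1 or 2, and 0.0759, 0.0807 and 0.0606 without sorafenib replicate 1, 2 or 3, with a difference of 0.23 to 0.31 in these 5 fits. The count of members past the threshold was then 3 in place of 4.

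ERP27, on chromosome 12 (14914039 to 14938537), had the largest difference of the measured members. It encodes an ER protein without the catalytic cysteines that binds unfolded polypeptides and the oxidoreductase ERp57, the product of PDIA3. Normalized log2 intensity was 9.36, 9.39 and 9.35 in control and 10.28, 10.26 and 10.30 in sorafenib samples. Each group spanned only 0.04 and the groups were far apart, also in the non-normalized intensities, 656, 717 and 735 against 1562, 1221 and 1361. ERP27 rose 1.89-fold (log2 0.92 ± 0.06, SE, 95% interval 0.78 to 1.06, limma adjusted p = 0.000121). By absolute difference it stood at 380 of 10598 measured genes, and 96.4% had a smaller one. Its brightness rank moved from 4904 in control to 3318 in sorafenib cells. ERP27 has 1 probe on the array, so no second probe bears on this rise.

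ERP29, also on chromosome 12 (112013426 to 112023449), encodes a non-catalytic family member that escorts secretory cargo. Its brightest probe (ILMN_2323048) read 13.56, 13.48 and 13.68 in control and 14.03, 13.85 and 13.99 in sorafenib samples. The second tested probe (ILMN_2251184) read 10.40, 10.27 and 10.51 in control and 10.84, 10.84 and 10.71 in sorafenib samples. On both probes every sorafenib value was above every control value; before normalization the brightest probe overlapped slightly, with a lowest sorafenib intensity of 13488 and a highest control intensity of 13683.

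The 2 probes gave nearly equal rises, 1.30-fold (log2 0.38 ± 0.08, limma adjusted p = 0.0136) and 1.32-fold (0.40 ± 0.08, adjusted p = 0.0112), from levels about 3 log2 units apart. On single arrays the gap between them was 3.16 to 3.21 in control and 3.01 to 3.28 in sorafenib samples, a mean change of -0.02 (two-sided exact permutation p = 0.9; 3 against 3 samples cannot go below 0.1). The platform annotation ties the brightest probe to another ERP29 transcript record than the other 2. The third probe (ILMN_1696035) was undetected at intensities of 75.9 to 92.3. ERP29 held rank 248 in control and rank 150 in sorafenib cells and was brighter than 98.2% of measured genes over all arrays.

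TMX1, on chromosome 14 (51240247 to 51257655), encodes a membrane-anchored thioredoxin-like oxidoreductase of the ER and was the measured member that fell. Values of its tested probe (ILMN_1691181) were 11.52, 11.68 and 11.52 in control and 11.11, 11.23 and 11.21 in sorafenib samples. The groups did not overlap, in normalized or non-normalized values (2742 to 3281 against 2262 to 2670). TMX1 fell 1.31-fold (log2 -0.39 ± 0.08, SE, 95% interval -0.57 to -0.21, limma adjusted p = 0.00849). Its brightness rank went from 1533 to 2000. The second TMX1 probe (ILMN_3251293) was undetected, with a detection p of 0.609 to 0.923, and cannot bear on the fall.

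PDIA3 and ERP44 can be described only at the level of background. PDIA3, on chromosome 15, encodes ERp57, which works on glycoproteins with calnexin and calreticulin. Its single probe read 90.3 to 95.3 in control and 102.5 to 119 in sorafenib samples before normalization. The sorafenib values were higher, but the detection p was under 0.05 on just 1 array (0.0442), and no fold is given. ERP44, on chromosome 9, encodes a chaperone that returns ERO1 and peroxiredoxin 4 to the ER. Its probes read 111 to 129 and 83.8 to 108, with overlapping groups on both. The first had a detection p of 0.0221 and 0.0377 in control replicates 1 and 3 and 0.0455 in sorafenib replicate 1. It had 0.0532 to 0.117 on the other arrays, and the second probe had 0.113 to 0.773.

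**Figure D3:**
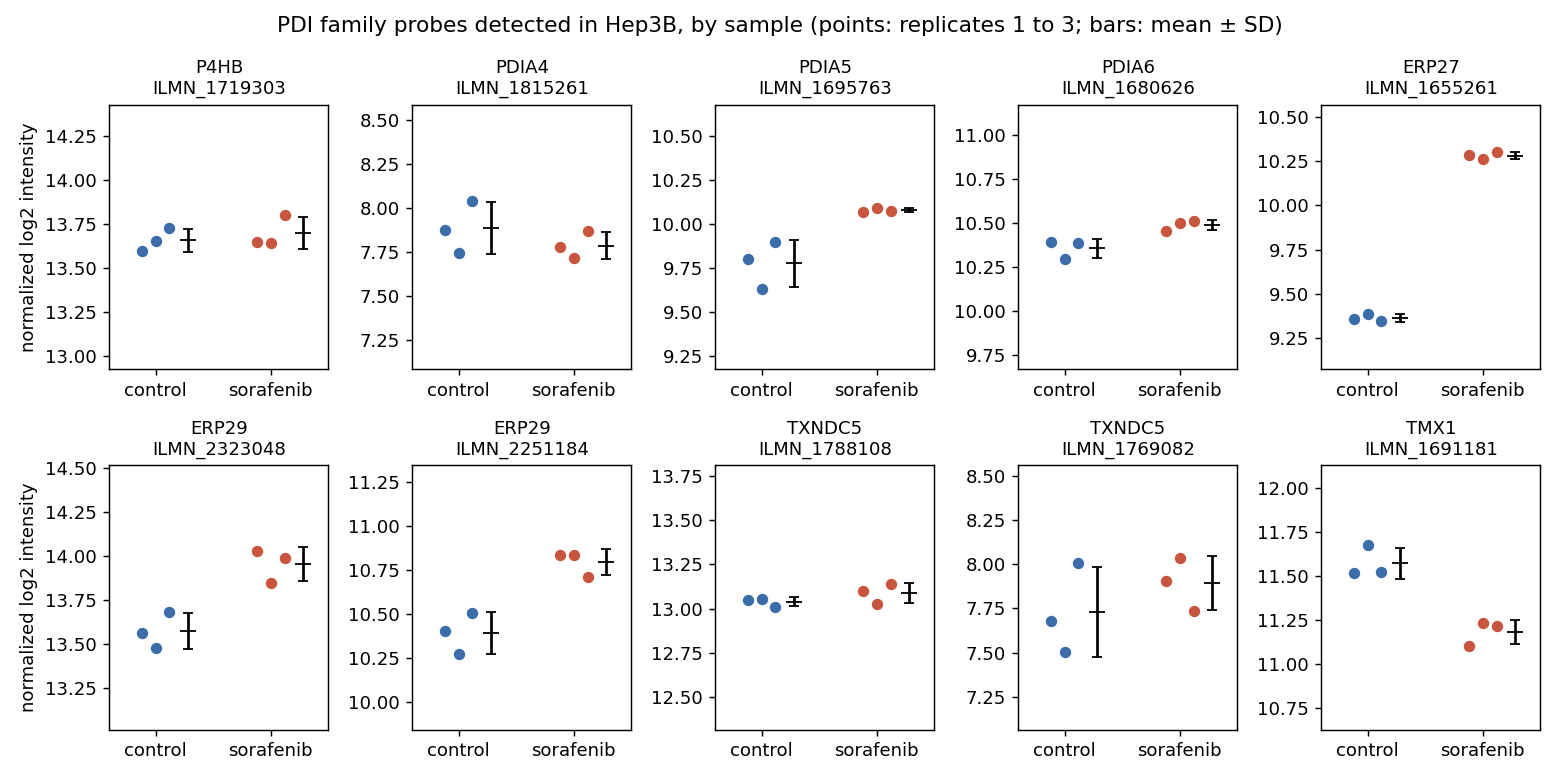
Normalized log2 intensity of the 10 tested probes in each sample, with the mean and SD of each group (n = 3); every panel spans the same 1.5 log2 units. The groups are separated for ERP27, both ERP29 probes, PDIA5, PDIA6 and TMX1, and overlap for P4HB, PDIA4 and both TXNDC5 probes.

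In the deposited log2 table, which carries no background correction, the 10 tested probes gave the same calls and directions. ERP27 differed by 0.85 there (limma adjusted p = 5.26e-06), the ERP29 probes by 0.38 each, PDIA5 by 0.28 (adjusted p = 0.0132), TMX1 by -0.38, PDIA6 by 0.12, PDIA4 by -0.07 and P4HB by 0.04. Of 2 genes with 2 tested probes each, ERP29 had both probes past the threshold in the same direction and TXNDC5 had neither.

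**Figure D4:**
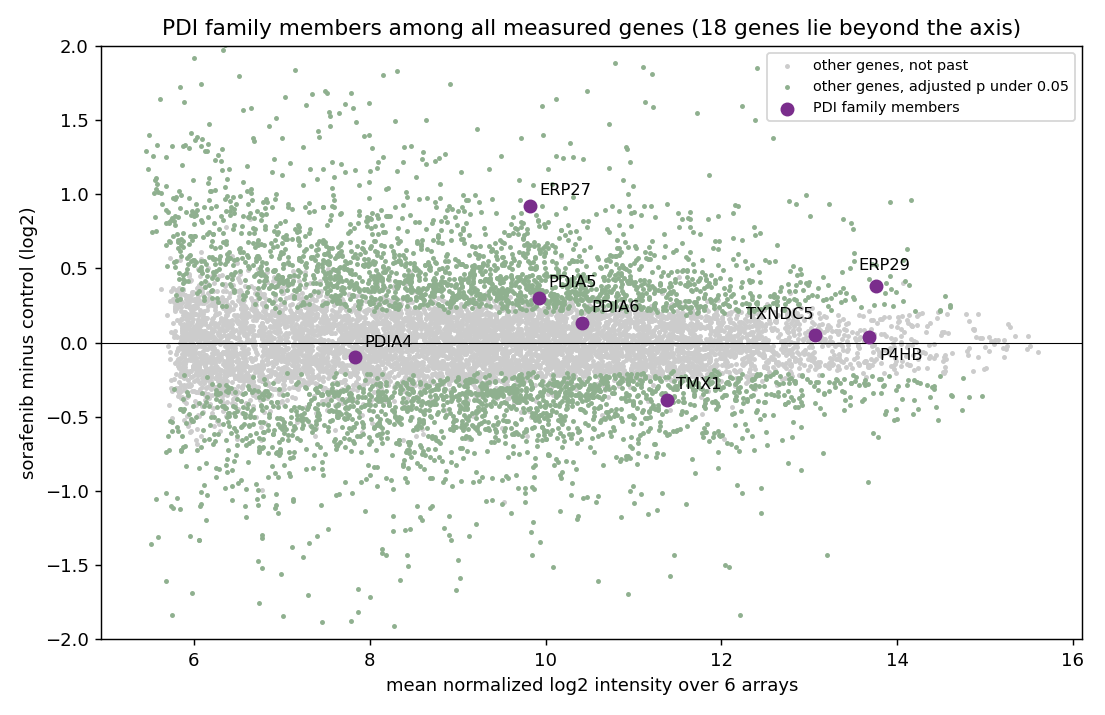
Sorafenib minus control (log2) against mean normalized log2 intensity for all 10598 measured genes, with the 8 measured members marked; 18 genes lie beyond the axis. ERP27 stands at 0.92, with a smaller absolute difference for 96.4% of measured genes, while P4HB and TXNDC5 lie close to 0 among the brightest probes.

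The wider PDI family was set beside these members through a list of 14 further genes, of which 8 were measured. The ER reductase DNAJC10, which works with BiP in degrading misfolded proteins, rose, none fell and 7 did not pass (median difference -0.03), against 36.7% of all measured genes past the threshold and 19.7% higher. DNAJC10 read 9.94, 10.14 and 9.93 in control and 10.66, 10.55 and 10.79 in sorafenib samples, a rise of 1.59-fold (log2 0.67 ± 0.09, limma adjusted p = 0.00224), and its second probe rose as well (0.50 ± 0.14, adjusted p = 0.0296). The thioredoxin-like TXNDC12 differed by 0.20 ± 0.06 without passing (adjusted p = 0.0506), and passed in 6 of 17 other settings, among them the deposited log2 table (adjusted p = 0.0280). The other membrane-anchored TMX genes gave -0.03 ± 0.07 (TMX2), -0.02 ± 0.08 (TMX3) and -0.17 ± 0.16 (TMX4), none past the threshold. TXNDC11 differed by 0.19 ± 0.09, TXNDC15 by -0.11 ± 0.14 and TXNDC16 by -0.24 ± 0.09, none past the threshold either, though TXNDC16 passed without control replicate 1 (-0.33, adjusted p = 0.0362). PDIA2, PDILT, AGR2, AGR3, CASQ1 and CASQ2, which are known for expression in other tissues, were not detected on any array.

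Enzymes that oxidise or reduce PDI family members formed a list of 9, of which 8 were measured: 2 were past the threshold in the upward direction, none downward, and 6 did not pass (median 0.08), against 36.7% of all measured genes past it. GPX8, counted among those past it, entered the test only through the sorafenib arrays, where it was detected; with detection required on all 6 arrays the count was 1 of 7. The ER peroxidase gene GPX7, whose product oxidises PDI with hydrogen peroxide, rose from 10.22, 10.08 and 10.12 to 10.96, 11.02 and 11.04, or 1.82-fold (log2 0.86 ± 0.07, limma adjusted p = 0.000249). Its relative GPX8 was undetected on all 3 control arrays and detected on all 3 sorafenib arrays, at least 1.21-fold higher; it could pass the filter only by being high there, so its test adds nothing to this description. This bound sets the sorafenib mean against the dimmest detected signal of each control array. The ER peroxiredoxin PRDX4 differed by 0.11 ± 0.06, the quinone reductases VKORC1 and VKORC1L1 by 0.06 ± 0.08 and -0.17 ± 0.09, none past the threshold. QSOX1, a sulfhydryl oxidase chosen after its values were seen, differed by 0.37 ± 0.14 without passing (adjusted p = 0.0743), but passed in 6 of 17 other settings, including the deposited log2 table (0.0377) and the fit without sorafenib replicate 2 (0.51, adjusted p = 0.0215). ERO1A, the main oxidase of PDI, chosen after its value was seen, differed by -0.12 ± 0.07 (95% interval -0.29 to 0.04).

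Proteins that form complexes with members made up a list of 12, with 10 measured, 3 risen, none fallen and 7 not past the threshold (median 0.16), a share near the 36.7% of all measured genes. MTTP, which pairs with P4HB to load lipid onto lipoproteins, read 9.34, 9.52 and 9.48 in control and 9.95, 10.12 and 10.29 in sorafenib samples, a rise of 1.59-fold (log2 0.67 ± 0.10, limma adjusted p = 0.00322). P4HA2, a catalytic subunit of collagen prolyl 4-hydroxylase whose other subunit is P4HB, rose 1.25-fold (0.32 ± 0.08, adjusted p = 0.0199), and a second probe rose by 0.40 ± 0.06. The call on the brighter P4HA2 probe was lost without control replicate 1 (adjusted p = 0.0690) or 2 (0.0572) and without sorafenib replicate 1 (0.0592) or 3 (0.0507). P4HA1, the other measured catalytic subunit, chosen after its value was seen, differed by 0.13 ± 0.09 without passing (adjusted p = 0.296), and P4HA3 was not detected.

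TAP1, a subunit of the peptide transporter of the PDIA3-containing loading complex, rose 1.96-fold (log2 0.97 ± 0.08, limma adjusted p = 0.000313), from 8.01 to 8.25 in control to 9.09 to 9.18 in sorafenib samples. TAPBP, the tapasin gene of the same complex, chosen after its values were seen, had probes of opposite sign: its brighter probe differed by 0.16 ± 0.09 without passing and the other fell by 0.32 on the log2 scale (adjusted p = 0.0493). The ER chaperone genes with the ER stress element gave 0.09 ± 0.07 for HSP90B1, -0.10 ± 0.11 for CALR and -0.07 ± 0.14 for CANX, none past the threshold. Together with PDIA6 and HSPA5, the 5 genes shown with this element did not pass, against 36.7% of all measured genes past the threshold. With 5 genes, nothing about the element is read from this count.

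**Figure D5:**
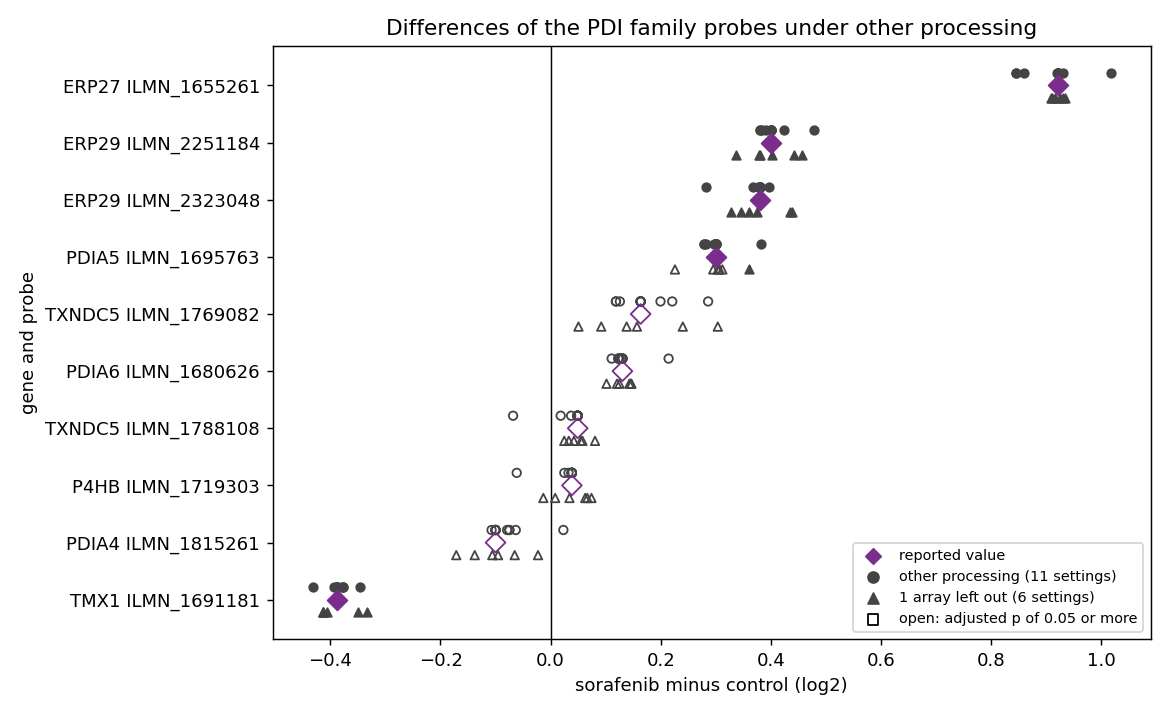
Sorafenib minus control (log2) for the 10 tested probes as reported (diamonds), under 11 other ways of processing (circles) and without 1 array (triangles), open where the adjusted p was 0.05 or more. ERP27, both ERP29 probes and TMX1 stay filled throughout, PDIA5 is open in 7 of 17 settings, and the others are open in all. The largest limma adjusted p over these settings was 0.0018 for ERP27. It was just under the threshold for ERP29 (0.0482 on the brightest probe, 0.0423 on the second) and TMX1 (0.0429).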

How the data were processed

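Total RNA of 6 Hep3B samples was labelled with biotin and hybridised to Illumina expression BeadChips, per the labels' protocols. For every probe and array the deposited files give, per the file headers, an intensity before normalization and a detection p-value. Which scanner software made them is not given in the sources used here. A log2 table from the authors was deposited beside these, its method unstated. Quantile normalization of the log2 intensities came within 5.0e-07 of its values, so it is uncorrected for background; each column has a median of 6.79.

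The neqc function (limma 3.58.1, R 4.3.3, offset 16, background inferred from the detection p-values) corrected and quantile-normalized the intensities. Probes with a detection p under 0.01 on at least 3 of 6 arrays entered lmFit and eBayes (two-sided, without a block). Adjustment was by Benjamini-Hochberg over all of these probes, with a threshold of 0.05, and each gene took the values of its brightest tested probe. Symbols came from the platform annotation (30112 probes with 1 symbol, 8 with several and 17201 with none), and 30073 matched a current gene by Entrez ID. The text names every member and member probe, all measured genes of the wider family, and in the partner lists the genes past the threshold and up to 3 brighter others. Beyond this, HSPA5, QSOX1, ERO1A, P4HA1 and TAPBP were added after their values were seen. ERO1B, P4HA3 and PPIB are named as undetected. The members and lists were chosen with earlier results of these data known. In simulated data of 16909 probes, 3 against 3, 50 probes were changed at each size. A change of 0.25 log2 was recovered for 2% of these, 0.5 for 36%, 1 for 90% and 2 for 98%, with 6 false calls. In the real data 5774 probes passed, far more than were changed in the simulation, and the adjustment is stricter when few probes change. These shares therefore do not give the recovery in the real data. The number of arrays limits the precision.

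Alternatives covered the background correction, between-array normalization, the deposited values, the filter, the replicate number as a block, variance models, array weights, the choice of probe and leaving out each array. Protein sequences were not used here.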

Additional observations from a re-analysis of the deposited data

How the results depend on the processing

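The members' differences were recomputed under 17 settings, giving 170 values for the 10 tested probes (the deposited table repeats the values without background correction, so 2 of the settings are the same): 159 kept direction and side of the threshold, 7 lost the call (all PDIA5, 5 of them without 1 array) and 4 changed sign, none of these past the threshold. PDIA5 had an adjusted p of 0.0602 when detection p under 0.05 on 1 array sufficed and 0.0780 with no filter. Its difference stayed at 0.30 in both, while the adjustment ran over 23852 and 47321 probes and the SE was 0.091 and 0.085. Their shares in the lost call were not tested. Sign changes were PDIA4 at 0.023, CANX at 0.019 and TMX3 at 0.10 with median centring over all probes; P4HB at -0.062, TXNDC5 at -0.068, HSP90B1 at -0.018, VKORC1 at -0.067 and TMX3 at 0.018 with centring on the tested probes. Without 1 array, P4HB ranged from -0.013 to 0.074, CANX from -0.20 to 0.037, TMX2 from -0.058 to 0.0097, TMX3 from -0.071 to 0.029 and TXNDC15 from -0.20 to 0.012. The count of further PDI family genes was 2 in place of 1 without background correction, with normexp and in the deposited table. It was also 2 with detection on all 6 arrays, with the trended robust variance and with array weights. In these settings the added gene was TXNDC12. With either looser filter the count was 2 as well, but TXNDC12 did not pass (limma adjusted p = 0.108 and 0.140). The added gene there was among those that the reported filter left out as undetected. Oxidation partners fell to 1 with detection on all 6 arrays, which removes GPX8 from the test, and were 3 without background correction, with normexp, in the deposited table, with median centring and with the trended robust variance, where QSOX1 passed. Leaving out 1 array gave 4021 to 5015 probes past the threshold (5774 in all samples), 3 to 4 members, 1 to 2 further family genes, 2 to 3 oxidation partners and 2 to 3 complex partners. Of the probes past the threshold, 52.5% were higher, and 69.5% of 4439 with median centring, which moved the median tested difference to 0.07. With the replicate number as a block 5509 probes passed, and the member count stayed at 4. Same-numbered samples had deviations correlated at 0.089, 0.101 and 0.252. Control replicates 2 and 3 correlated best with their own number, and control replicate 1 with sorafenib replicate 2 (0.094). With 3 samples a group these correlations cannot settle whether the numbers pair the samples. The labels do not state a pairing, and the reported fit used none. With 3 samples a group, some small differences passed (TF at -0.27, limma adjusted p = 0.0134) and some larger ones did not (QSOX1 at 0.37, limma adjusted p = 0.0743).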
